A study of Mus musculus with 6 samples.

Results

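The genes described here carry out mitosis and the segregation of chromosomes. They form a list of 48 genes, of which 47 were measured; Ccnb1 was not in the platform annotation and was dropped. The 47 are part of 19938 genes named by the probe sets of the array. Each gene was read from the probe set naming it alone, the one with the highest mean level where there were several. The rule lists genes by name, and they were chosen with earlier results of these data known. Where a gene had several probe sets naming it alone, the choice among them used the measured levels. Top2a alone had a second such probe set, which lay below 4.5 on the log2 scale on every array and was not used.

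The arrays came from bone marrow cells of Spic(igfp/igfp) mice cultured in 10% serum and 20 ng/ml GM-CSF, a growth factor for myeloid cells. After 6 days the cultures were given 80 µM heme (the labels type the unit as µm) or vehicle, which was 0.15 M NaCl with 10% NH4OH, and only adherent cells were taken 6, 24 or 72 h later. Each of the 6 combinations of treatment and time was measured on 1 array, and all of them carry the same genotype. What the igfp allele holds, the age of the mice, and whether marrow of several mice was pooled were not stated in the labels.

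Cells that leave the cycle switch off these genes together, and cells that divide express them from late S phase through mitosis. The list runs from the cyclins and Cdk1, which start mitosis, over the spindle motors, the kinetochore that links chromosomes to spindle microtubules and the checkpoint that watches this link, to separase, the condensins and the machinery of cytokinesis. Marrow cultures hold dividing progenitors in their first days, and macrophages and dendritic cells mostly leave the cycle as they mature. In RNA from all adherent cells of a culture, fewer dividing cells and less of these transcripts per dividing cell cannot be told apart.

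Values are log2 levels, and a difference of 1 is 2-fold. Medians of the arrays ran from 5.34 to 5.45. The heme array of 6 h stood apart, with the top median and the lowest standard deviation of its values (2.19, against 2.21 to 2.25 on the other 5 arrays). The median over all arrays and probe sets, 5.37, served as a filter, and a level under it was not shown to be above background. Genes whose highest array reached this level were tested, 11516 in all, and all 47 members were among them. Of the members, 17 reached it on every array, 9 had a mean below it, and 2, Kif18a and Cdc25c, reached it on the 6 h vehicle array only. Nuf2, Spc25, Kif2c, Kif4, Ttk and Ect2 reached it on both 6 h arrays and on no later one. These genes, with Kif18a and Cdc25c, were tested only because of their 6 h levels, which favours a fall with time. All 11 macrophage markers reached the level on every array, among them Adgre1, Csf1r and Lyz2, and no lymphocyte marker measured here reached it on any.

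Mitosis genes were lower late in culture than early, with heme and with vehicle alike. At 72 h all 47 members were below their 6 h level in both treatments, against 44.0% of all genes tested with heme and 57.7% with vehicle. The median of the members was 6.46, 5.82 and 5.29 at 6, 24 and 72 h on the heme arrays, and 7.04, 6.03 and 5.22 on the vehicle arrays. In a model of treatment plus time fitted to the 6 arrays (limma, Benjamini-Hochberg adjustment over 11516 genes), 43 of 47 members fell between 6 and 72 h and 0 rose. Over all genes tested, 3.53% fell in this comparison and 3.06% rose. With the filter set on the mean of the 6 arrays, 38 members were tested and 34 fell, against 352 of 10568 genes.

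**Figure D1:**
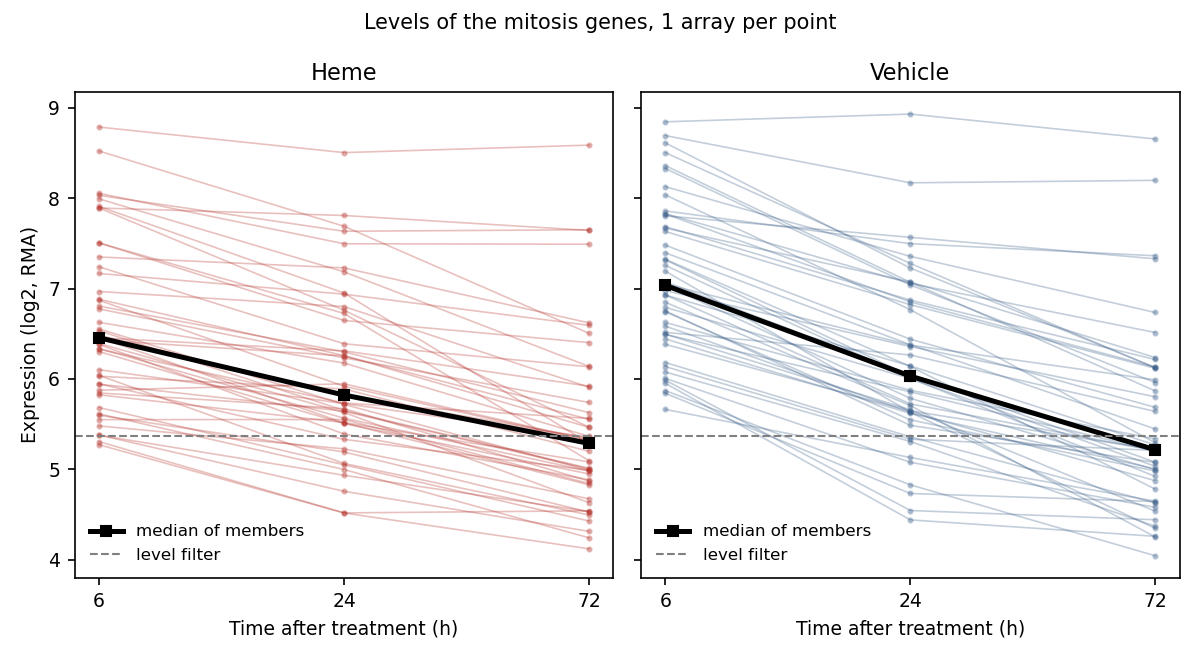
Log2 levels of the 47 mitosis genes at 6, 24 and 72 h (x axis, evenly spaced) on the heme arrays (left) and the vehicle arrays (right). Each thin line is 1 gene, the black line with squares is the median of the members, and the dashed grey line is the level filter of 5.37. The medians were 6.46, 5.82 and 5.29 with heme and 7.04, 6.03 and 5.22 with vehicle.

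The median change from 6 to 72 h was -1.07 with heme and -1.68 with vehicle, against 0.05 and -0.06 over all genes tested. At least 2-fold lower levels at 72 h were seen for 27 members with heme and 41 with vehicle, where 2.67% and 2.85% of all genes tested were that much lower; 0 members were at least 2-fold higher with either, against 3.36% and 1.41%. Levels declined at each step in 42 members with heme and in 45 with vehicle, against 16.9% and 27.7% of all genes tested. Both 72 h arrays lay below both 6 h arrays in 46 members, against 23.2% of all genes tested; in the other one, Cenpa, the groups overlapped.

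By 72 h, 27 members lay below 5.37 on both arrays, so their change has no exact size. With every level below 5.37 set to 5.37, the median change was -0.73 with heme and -1.37 with vehicle. Among members with both levels at or above 5.37, it was -0.96 with heme (18 members) and -1.43 with vehicle (19 members). The median change of the members was thus larger with vehicle than with heme. For each gene, the change with heme less that with vehicle equals its 72 h heme minus vehicle difference less its 6 h one. It is therefore no result separate from those differences. Over all genes tested the median change was also lower with vehicle (-0.06) than with heme (0.05). At 6 h, 44 of 47 members were lower with heme than with vehicle, and whether the change with time differs between treatments was not tested, because no replicate arrays are left for an interaction.

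Among members that stayed above 5.37 on every array, Top2a (probe set 10390707), topoisomerase II alpha, which untangles sister chromatids, had the steepest fall with heme and in the mean of both treatments; with vehicle, Ccnb2 and Mki67 fell more. Its levels were 7.89, 6.76 and 5.47 at 6, 24 and 72 h with heme, and 8.33, 7.04 and 5.96 with vehicle. Between 6 and 72 h it fell 5.37-fold with heme and 5.16-fold with vehicle (limma over both treatments, adjusted p = 1.37e-04). The proliferation antigen Mki67 (10568714), which coats mitotic chromosomes, had 8.52, 7.69 and 6.51 with heme and 8.50, 7.28 and 6.12 with vehicle (limma, adjusted p = 2.22e-04 for 72 h against 6 h). In both genes each later array was below each earlier one.

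Among cyclins, Cdk1 and its activator Cdc25c, 4 of 4 measured members fell between 6 and 72 h. Cyclin A2 (Ccna2, 10497831), which drives S phase and entry into mitosis, had 7.91, 6.95 and 5.29 with heme and 8.36, 7.07 and 5.87 with vehicle (limma, adjusted p = 1.37e-04). Its 72 h heme level was below 5.37, so the change of Ccna2 with heme was at least -2.53. Cyclin B2 (Ccnb2, 10594774), a partner of Cdk1, had 7.99, 7.19 and 6.14 with heme and 8.61, 7.23 and 6.13 with vehicle. At 24 and 72 h its 2 curves nearly met. Cdk1 (10369815), the kinase that starts mitosis, declined less, with 6.62 at 72 h against 7.35 at 6 h in heme cultures and 6.74 against 8.13 in vehicle cultures (limma, adjusted p = 0.0143).

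Among the mitotic kinases and the chromosomal passenger complex, which corrects faulty attachments of chromosomes, 5 of 6 fell. Survivin (Birc5, 10382998), a passenger subunit, was 5.10 at 72 h against 7.51 at 6 h with heme, and 5.29 against 8.04 with vehicle, falls of at least 2.13 and 2.66. Aurora kinase A (Aurka), which matures the spindle poles, was 5.63 against 6.81 with heme and 5.69 against 7.48 with vehicle. Polo-like kinase 1 (Plk1) changed by nearly equal amounts, -1.03 with heme and -1.06 with vehicle. Incenp, the scaffold of the passenger complex, did not pass (limma, adjusted p = 0.176), with 7.65 against 8.03 with heme and 7.36 against 7.86 with vehicle.

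All 8 kinesins, the motors of the spindle, fell. Kif23 (10594251), the motor subunit of centralspindlin at the midzone of the spindle, was 5.46 at 72 h against 6.88 at 6 h with heme and 6.12 against 7.63 with vehicle. Kif11, which pushes spindle poles apart, fell with changes of -1.52 with heme (at least -1.16) and -2.09 with vehicle (at least -1.94). Members of the kinetochore fell in 6 of 7 cases, among them the microtubule-binding Ndc80, with changes of -0.83 with heme (at least -0.66) and -0.88 with vehicle. Cytokinesis genes fell in 4 of 4, spindle assembly genes in 4 of 4, and both genes of anaphase onset, Cdc20 and the separase gene Espl1, fell as well (limma, adjusted p = 0.0374 and 0.0234).

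The 4 members that did not pass were Cenpa, Incenp, Bub3 and Smc4 (limma, adjusted p = 0.0971, 0.176, 0.284 and 0.637). Bub3, a checkpoint protein that also binds messenger RNA factors outside mitosis, was 7.64 at 72 h against 7.89 at 6 h with heme and 7.33 against 7.81 with vehicle. Smc4 (10492558), an ATPase core subunit shared by both condensins, had 8.79, 8.51 and 8.59 with heme and 8.85, 8.93 and 8.66 with vehicle, so its 6 levels spanned less than 2-fold. Its partner in the condensin core, Smc2, did fall, to 6.13 at 72 h, against 7.24 at 6 h, in heme cultures and to 6.24, against 7.67, in vehicle cultures. The non-SMC condensin subunits Ncapd2, Ncapg and Ncaph fell too, with adjusted p-values of 0.00914, 0.00726 and 0.0150 in limma.

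**Figure D2:**
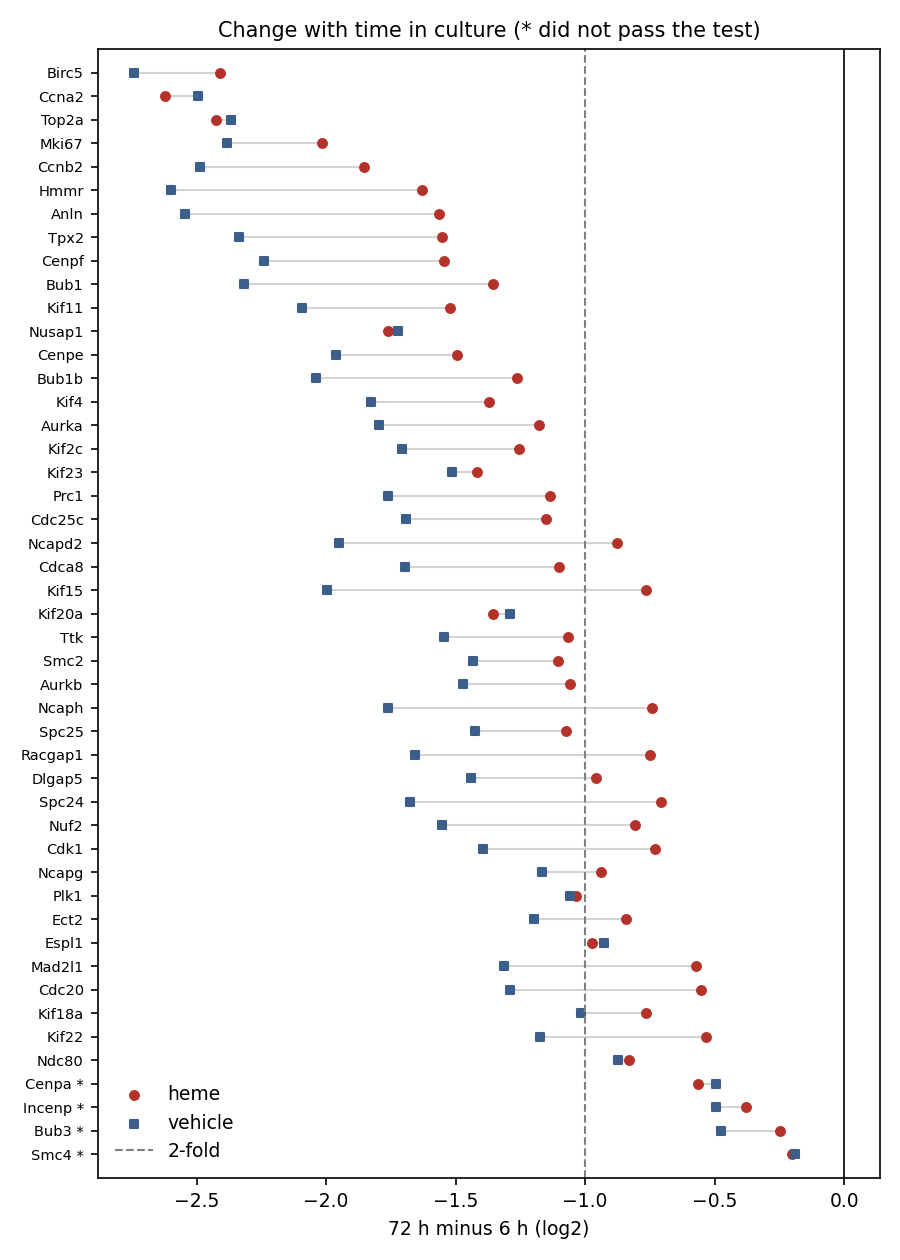
Change of each mitosis gene from 6 to 72 h on the log2 scale (x axis), red circles for heme and blue squares for vehicle, 1 difference of 2 arrays per point; genes run from the largest to the smallest mean change. The dashed line marks a 2-fold decrease, which 27 genes passed with heme and 41 with vehicle, levels below 5.37 included. The asterisk marks Cenpa, Incenp, Bub3 and Smc4, which did not pass the test.

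Single steps of the time course reached the test for few members. Between 6 and 24 h, 5 members fell (Top2a, Ccna2, Mki67, Kif11 and Birc5; limma, adjusted p from 0.0242 to 0.0471), and 0 rose, where 0.373% of all genes tested fell and 0.226% rose. Between 24 and 72 h, 4 fell (Birc5, Ccna2, Top2a and Mki67; limma, adjusted p from 0.0106 to 0.0234), and 0 rose, where 0.339% of all genes tested fell and 0.226% rose. These 2 counts depend on single arrays: leaving out 1 array at a time gave 0 to 31 members for the first step and 0 to 26 for the second. The count of 43 for 72 h against 6 h stayed between 30 and 43.

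Some markers of cell types also changed between 6 and 72 h, in both directions. Of 10 neutrophil markers, 6 fell between 6 and 72 h and 1 rose, the receptor gene Csf3r (limma). The summed linear level of this list was 12962, 10442 and 5681 at 6, 24 and 72 h with heme, and 12131, 5043 and 3854 with vehicle. Of 10 markers of myeloid progenitors, 6 never reached 5.37, among them Kit, Prtn3 and Ms4a3, and 1, Cd34, fell. Of 11 macrophage markers, Csf1r and Mertk rose and 0 fell, and their summed linear level was 19954, 21112 and 25114 with heme and 20881, 23664 and 24612 with vehicle. Of 8 stromal markers 4 were tested, 1 rose (Dcn) and 0 fell (limma), and the summed linear level of all 8 was 363, 431.9 and 878.2 with heme and 464.8, 436.2 and 652.3 with vehicle at 6, 24 and 72 h. Among the 9 dendritic cell markers tested, 1 fell and 1 rose (limma), with median changes of -0.29 with heme and 0.12 with vehicle. The part of these cell types in the decline of the mitosis genes was not tested.

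With heme, the mitosis genes were lower than with vehicle at 6 h, and the measured gap was small later, with many levels near background at 72 h. Of 47 members 44 were lower with heme at 6 h, 35 at 24 h and 25 at 72 h, against 63.5%, 53.2% and 44.7% of all genes tested. The median difference, heme minus vehicle, was -0.50, -0.12 and -0.01 at the 3 times in turn, against -0.10, -0.02 and 0.03 over all genes tested. The highest and lowest members differed by 0.17 and -1.20 at 6 h, 0.41 and -0.68 at 24 h, and 0.58 and -0.71 at 72 h. The 0.58 is that of Hmmr, with both levels below 5.37. At 72 h 27 members lay below 5.37 on both arrays, so their difference there has no exact size. Among the 17 members with both 72 h levels at or above 5.37, the highest was 0.38 and the median -0.06, and 9 were lower with heme. At 1 time point there is 1 array per treatment, so none of these differences could be tested, and the 6 h heme array is the one that stood apart in its median and spread. The summed linear level of the neutrophil markers was higher with heme than with vehicle at each time, as given above, with 10442 against 5043 at 24 h. Their median differences were 0.11, 0.98 and 0.23 at 6, 24 and 72 h, with 3, 1 and 4 of 10 lower with heme. At 6 h the macrophage markers had a median difference of -0.28, with 8 of 11 lower with heme. Tfrc, the iron uptake receptor and the 1 of 5 erythroid markers tested, differed by -1.51, -0.02 and -0.05 at 6, 24 and 72 h. The 9 dendritic cell markers tested went the other way at 6 h, with a median difference of 0.27 and 2 of 9 lower with heme. The part of these markers in the differences was not tested.

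**Figure D3:**
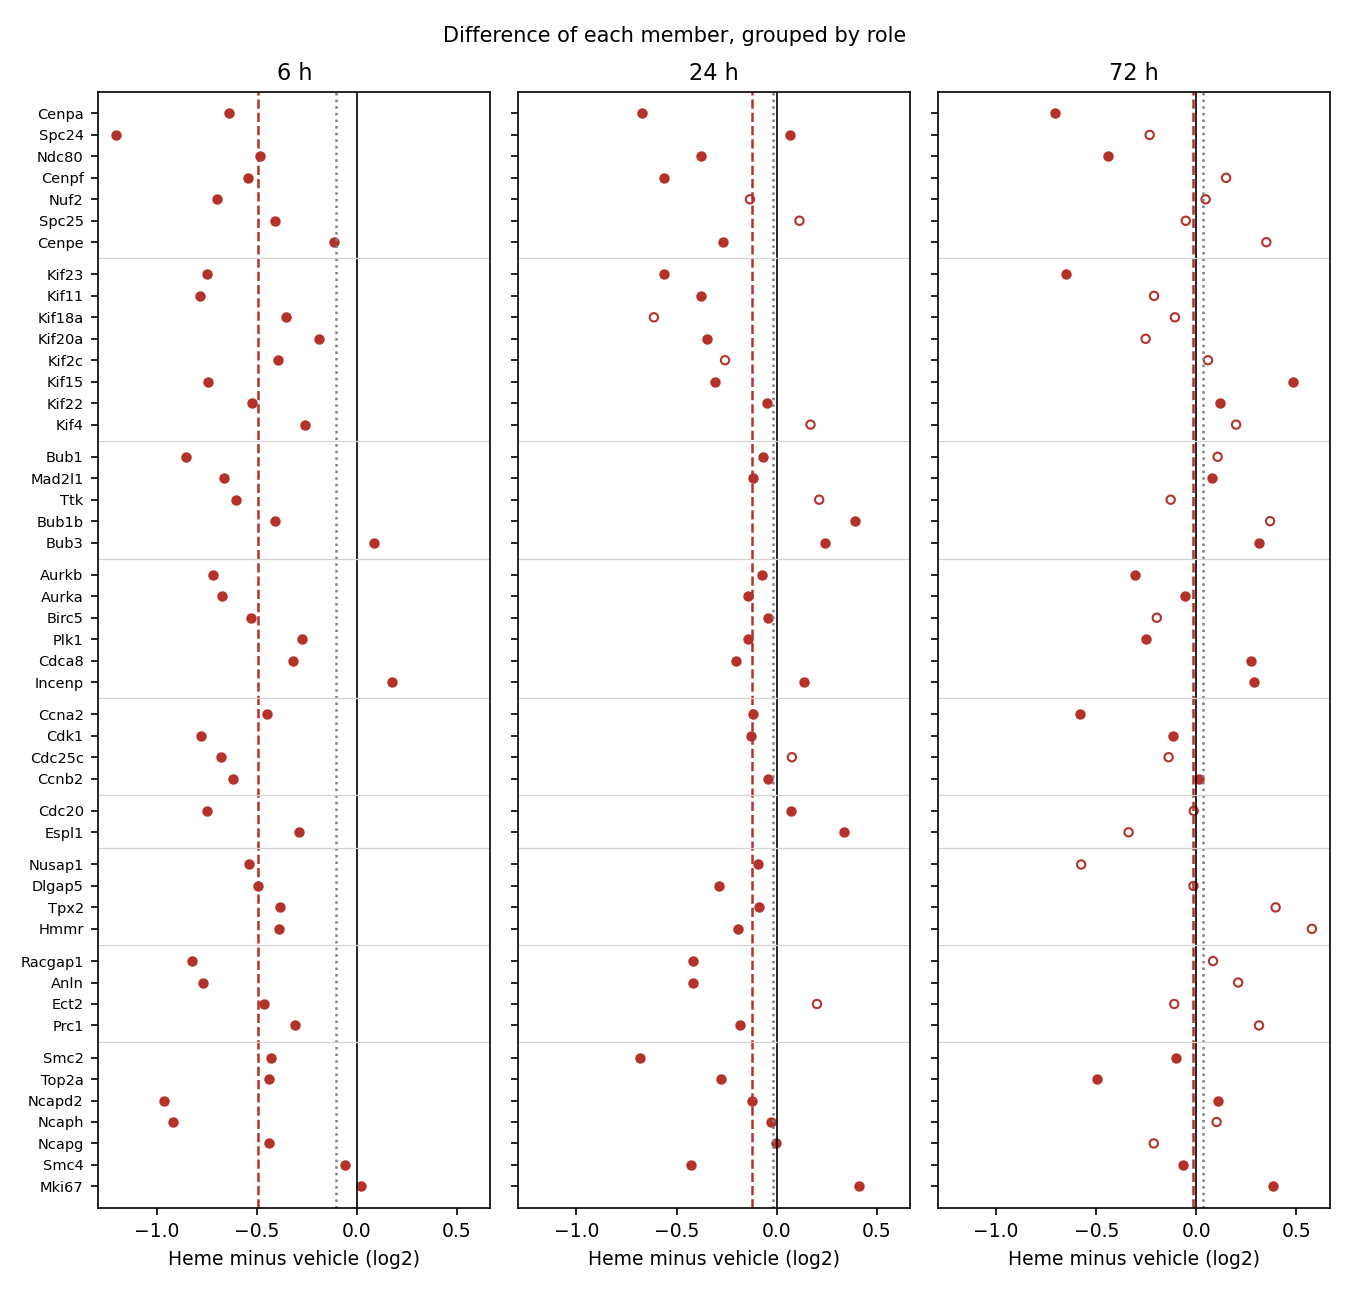
Heme minus vehicle difference of each mitosis gene (log2, x axis) at 6, 24 and 72 h, 1 pair of arrays per panel, with genes grouped by role. Filled points have at least 1 of both levels at or above 5.37 and open points have both below it; the red dashed line is the median of the members (-0.50, -0.12 and -0.01) and the grey dotted line that of all genes tested (-0.10, -0.02 and 0.03).

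A decrease of at least 1.5-fold at 6 h was found for 19 members, where 6.89% of all genes tested were that much lower; it was found for 3 members at 24 h (2.83% of all genes tested) and for 2 at 72 h (2.67%). Only Spc24 reached 2-fold at 6 h, where 0.669% of all genes tested did so, and 0 members did at 24 and 72 h (0.486% and 0.608%). No member was at least 2-fold higher with heme at 6, 24 or 72 h, against 0.964%, 1.42% and 1.25% of all genes tested. The 6 h heme level lay between the 6 h and the 24 h vehicle level in 39 of 47 members, against 15.0% of all genes tested. Lower with heme at 6 h and higher at 72 h were 19 members, against 34.9% of all genes tested, a share not far from the background.

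The 3 members that were not lower at 6 h were Bub3, Incenp and Mki67. Mki67 was 8.52 with heme and 8.50 with vehicle at 6 h, and higher with heme by 0.41 at 24 h and 0.38 at 72 h. Incenp was higher by 0.17, 0.14 and 0.29 at 6, 24 and 72 h, and Bub3 by 0.09, 0.24 and 0.31. None of these passed over the 3 time points (limma, adjusted p = 0.60, 0.718 and 0.694).

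Over the 3 time points 2 of 47 members fell with heme and 0 rose (limma), where 0.59% of all genes tested fell and 1.13% rose. At an unadjusted p under 0.05 in limma there were 10 lower members and 0 higher ones, against 5.65% and 4.97% of all genes tested. Nothing in the labels marks replicates, so the p-values rest on how the difference varied between time points. limma combines this with the variance pooled over all genes tested (2 residual and 7.17 prior degrees of freedom). They therefore do not measure a gene's own variation alone.

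Cenpa (10520521), the histone H3 variant that marks the centromere, was the member with the most even difference. Its levels were 8.05, 7.50 and 7.49 at 6, 24 and 72 h on the heme arrays, and 8.69, 8.17 and 8.20 on the vehicle arrays. It was lower with heme at all 3 times, with a mean difference of -0.67 ± 0.03 on the log2 scale (SD, n = 3 time points; limma, adjusted p = 0.0395), and it was the single member whose 3 heme levels all lay below its 3 vehicle levels, a pattern that 5.85% of all genes tested show. Kif23 had 6.88, 6.26 and 5.46 with heme and 7.63, 6.82 and 6.12 with vehicle, a difference of -0.66 ± 0.09 (SD, n = 3 time points; limma, adjusted p = 0.0474). Its heme and vehicle levels overlapped across times, because both fell as the culture aged. Both calls were lost without the 24 h pair (limma, adjusted p = 0.467 and 0.436), without the 72 h pair (0.0992 and 0.104), after cyclic loess (0.0607 and 0.0536) and after a second quantile normalization (0.0559 and 0.0629).

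The other kinetochore genes were lower with heme at 6 h and varied afterwards. Spc24 (10591556), a subunit of the NDC80 complex that holds microtubules, was 5.55 with heme and 6.75 with vehicle at 6 h, which is 2.30-fold lower, but 5.55 against 5.49 at 24 h. Ndc80 itself was lower at each time, with differences of -0.49 and -0.38 at 6 and 24 h and at least -0.27 at 72 h, where its heme level was below 5.37, and did not pass (limma, adjusted p = 0.202). Cenpf, a large protein of the outer kinetochore, differed by -0.55 at 6 h and by at least -0.26 at 24 h, where its heme level was below 5.37. Cenpe, a kinetochore motor, was close to vehicle at 6 h (-0.11) and had both 72 h levels below 5.37.

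Among kinesins, Kif11 and Kif15, which act together in keeping the spindle bipolar, differed at 6 h by -0.78 and -0.74. Kif15 was 5.56 with heme and 5.08 with vehicle at 72 h, a difference of 0.48 that is at least 0.19 when the vehicle level is set to 5.37. Kif20a, another motor of the midzone, differed by -0.19 and -0.35 at 6 and 24 h. Its levels, like those of Kif11, lay below 5.37 on both 72 h arrays. Neither Kif11 nor Kif20a passed over the 3 time points (limma, adjusted p = 0.257 and 0.566).

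Checkpoint genes had a median difference of -0.61 at 6 h, with 4 of 5 lower with heme, and 2 of 5 were lower at 24 h. Bub1, the kinase that recruits the checkpoint to kinetochores, was 6.34 with heme and 7.19 with vehicle at 6 h, but 5.57 against 5.63 at 24 h. Bub1b, which inhibits the anaphase-promoting complex, was 6.63 against 7.04 at 6 h and 6.18 against 5.79 at 24 h. Mad2l1, its partner in the checkpoint complex, differed by -0.66 at 6 h and by -0.12 and 0.08 later. None of the 5 passed with heme (limma, adjusted p from 0.694 to 0.915).

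Cyclins, Cdk1 and the phosphatase Cdc25c, which activates Cdk1, were lower at 6 h in 4 of 4 cases, with differences of -0.45 to -0.78. Cdk1 was 7.35 with heme and 8.13 with vehicle at 6 h, then 7.23 against 7.36 at 24 h and 6.62 against 6.74 at 72 h. Ccna2 was lower at all 3 times, with differences of -0.45, -0.12 and -0.58, the last at least -0.49. In the passenger complex Aurkb, its kinase, was 6.97 against 7.69 at 6 h and 6.80 against 6.87 at 24 h.

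Cytokinesis genes showed the 6 h gap as well. Racgap1, the partner of Kif23 in centralspindlin, was 6.10 with heme and 6.93 with vehicle, and the scaffold Anln was 6.55 against 7.32. Both also differed by -0.42 at 24 h and had both 72 h levels below 5.37. Of the condensin subunits, Ncapd2 was 6.43 with heme against 7.40 with vehicle and Ncaph 5.83 against 6.74 at 6 h, and at 24 h the differences were -0.12 and -0.03. Smc2 followed another course, with its largest difference at 24 h, 6.39 with heme against 7.07 with vehicle. Top2a differed by -0.44, -0.28 and -0.49 and did not pass (limma, adjusted p = 0.255).

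The genes of spindle assembly were lower with heme in 4 of 4 cases at 6 h and again at 24 h. Nusap1, which bundles spindle microtubules, was 6.39 with heme and 6.93 with vehicle at 6 h. Hmmr, a spindle protein, differed by -0.39 at 6 h and measured 0.58 higher at 72 h, but both 72 h levels (4.83 and 4.25) lay below 5.37. Tpx2, the activator of Aurora A, had a difference of -0.39 at 6 h.

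Other genes of the same pathway, 92 tested in 5 lists, were measured as well. With heme 0 of 92 passed over the 3 time points in limma, with 16 lower at an unadjusted p under 0.05. Their medians were -0.34, -0.14 and 0.03 at 6, 24 and 72 h, and 83 of 92 were lower at 6 h. Between 6 and 72 h 35 of 92 fell and 0 rose (limma). By list, 13 of 23 other spindle and cytokinesis genes, 9 of 20 other kinetochore genes, 7 of 13 kinases, cyclins and entry regulators, 5 of 22 genes of the checkpoint and the anaphase-promoting complex, and 1 of 14 other condensin and cohesin genes fell. Stmn1, which destabilises microtubules, was 8.75, 8.57 and 7.30 with heme and 9.22, 8.95 and 8.12 with vehicle at 6, 24 and 72 h (limma, adjusted p = 0.125 for heme and 0.00283 for 72 h against 6 h).

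DNA replication genes had a larger gap at 6 h than the mitosis genes and a smaller change with time. Their median difference was -0.70, -0.09 and 0.02 at 6, 24 and 72 h, with 36 of 37 lower at 6 h, and 0 passed over the 3 time points in limma (4 lower at an unadjusted p under 0.05). Between 6 and 72 h 8 of 37 fell, among them Rrm2, the small subunit of ribonucleotide reductase, and the median change was -0.25 with heme and -0.80 with vehicle. The difference between these lists and the mitosis genes was not tested.

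**Figure D4:**
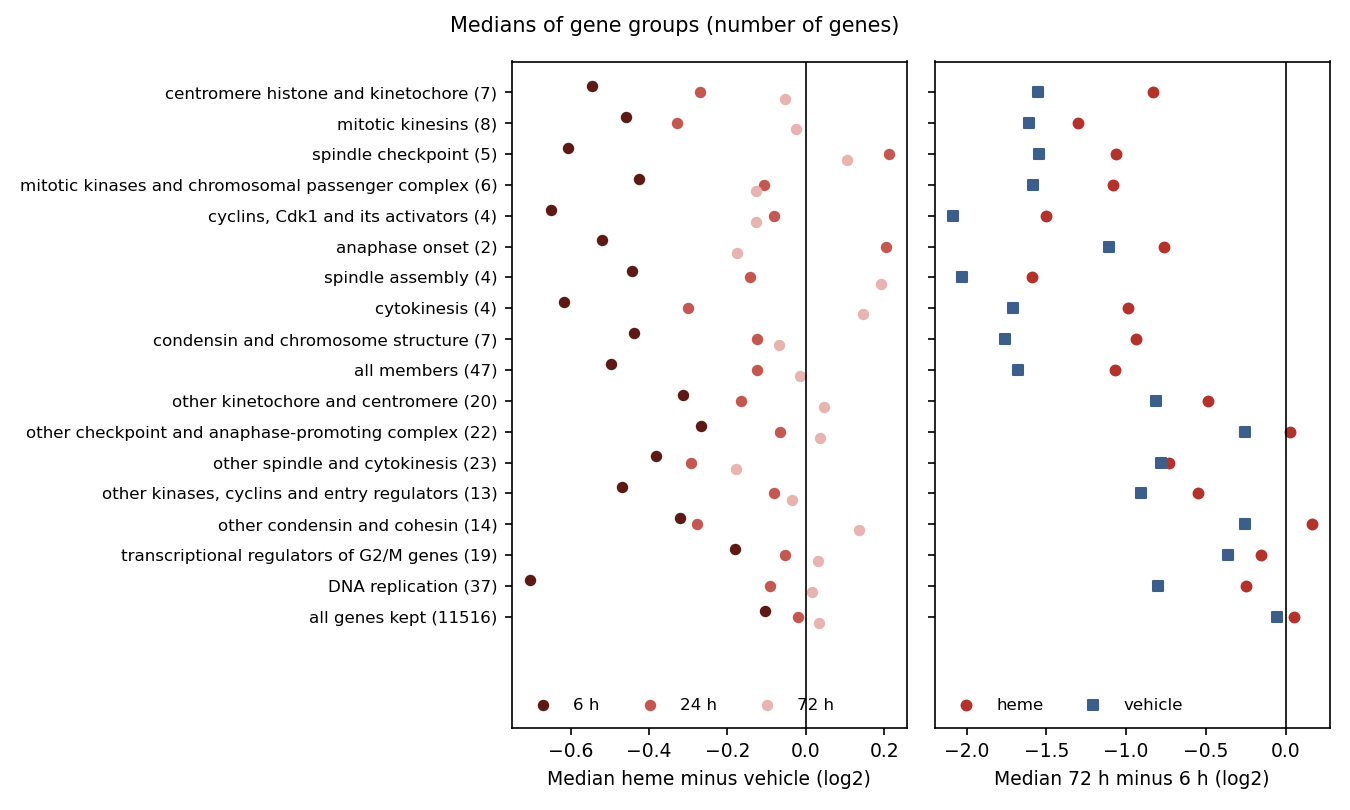
Median log2 difference of each gene group, with the number of genes tested in brackets: heme minus vehicle at 6, 24 and 72 h (left panel, dark to light red) and 72 h minus 6 h for heme (red circles) and vehicle (blue squares) (right panel). The members lie at -0.50, -0.12 and -0.01 on the left and at -1.07 and -1.68 on the right, and all genes tested lie near 0.

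Of 19 regulators of late cell cycle genes, 3 fell between 6 and 72 h and 0 changed with heme (limma, with 1 lower at an unadjusted p under 0.05 for heme). The 3, chosen for the text after their values were seen, were Foxm1, the activator of genes of G2 and mitosis, E2f8, a repressor made in S phase, and the repressor E2f4. Foxm1 had 6.33, 5.50 and 5.26 at 6, 24 and 72 h with heme, and 6.66, 6.07 and 5.35 with vehicle. It differed by -0.33 and -0.57 at 6 and 24 h, had both 72 h levels below 5.37, and did not pass (limma, adjusted p = 0.458). E2f8 differed by -0.92 at 6 h and 0.12 at 24 h, heme minus vehicle.

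The promoters of the mitosis genes share short motifs that took no part in choosing the list. Promoters of G2 and mitosis genes are known for CCAAT boxes, bound by the factor NF-Y, and for the cell cycle genes homology region (CHR), whose usual letters are TTTGAA or TTTAAA and which is bound by MuvB complexes together with B-MYB and FOXM1 or, in resting cells, with E2F4. Windows of 300 bases, 250 before and 50 after the annotated start, were found for 38 of 47 members in RefSeq (GRCm38.p6), 1 window per gene, and searched on both strands. TTTGAA was in 30 of 38 windows (78.9%), against 18.1% of the windows of all 27025 genes in the table. CCAAT was in 28 of 38 (73.7%), against 37.9%, and 18 of 38 (47.4%) held it at least 2 times, against 12.2%. Either CHR form together with CCAAT was in 27 of 38 (71.1%), against 10.9%. TTTAAA was in 8 of 38 (21.1%), against 13.2%. TTTAAA reads the same on both strands and was counted once, and matches of different motifs may share bases. In 31 windows of DNA replication genes TTTGAA was found in 4 (12.9%) and CCAAT in 20 (64.5%).

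The stretches below run from 170 bases before to 30 after the start, 5′ to 3′ on the gene's strand, and show how the motifs stand in promoters of genes that fell strongly with time (Ccnb2, Top2a, Birc5), of the 2 genes lower with heme (Kif23, Cenpa) and of a gene that did not pass the test with time (Bub3). Capitals mark each match to the CCAAT box, which reads ATTGG where it lies on the other strand, and each match to a CHR form, where a TTTGAA of the other strand reads as TTCAAA.
Ccnb2, chr9:70421525-70421724, minus strand: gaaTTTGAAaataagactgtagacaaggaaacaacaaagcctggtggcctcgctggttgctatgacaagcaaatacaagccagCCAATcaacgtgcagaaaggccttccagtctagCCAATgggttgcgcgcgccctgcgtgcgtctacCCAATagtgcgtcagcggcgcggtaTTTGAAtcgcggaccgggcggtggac
Top2a, chr11:99024160-99024359, minus strand: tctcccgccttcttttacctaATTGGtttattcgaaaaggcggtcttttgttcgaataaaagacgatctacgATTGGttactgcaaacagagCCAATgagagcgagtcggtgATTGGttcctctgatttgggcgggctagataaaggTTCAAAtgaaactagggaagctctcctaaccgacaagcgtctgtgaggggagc
Birc5, chr11:117849067-117849266, plus strand: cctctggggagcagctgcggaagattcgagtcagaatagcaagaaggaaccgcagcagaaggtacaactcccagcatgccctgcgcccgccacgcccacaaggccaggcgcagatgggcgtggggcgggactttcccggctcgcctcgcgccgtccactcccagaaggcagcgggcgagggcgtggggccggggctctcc
Kif23, chr9:61946770-61946969, minus strand: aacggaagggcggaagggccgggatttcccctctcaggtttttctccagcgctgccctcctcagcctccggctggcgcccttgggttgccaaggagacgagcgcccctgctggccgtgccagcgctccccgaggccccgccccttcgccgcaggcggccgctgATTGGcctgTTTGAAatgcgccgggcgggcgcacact
Cenpa, chr5:30666716-30666915, plus strand: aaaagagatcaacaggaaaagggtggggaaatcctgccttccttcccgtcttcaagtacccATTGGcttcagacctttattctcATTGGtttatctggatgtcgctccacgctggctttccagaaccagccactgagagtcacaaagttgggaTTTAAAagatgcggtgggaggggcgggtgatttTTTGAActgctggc
Bub3, chr7:131560200-131560399, plus strand: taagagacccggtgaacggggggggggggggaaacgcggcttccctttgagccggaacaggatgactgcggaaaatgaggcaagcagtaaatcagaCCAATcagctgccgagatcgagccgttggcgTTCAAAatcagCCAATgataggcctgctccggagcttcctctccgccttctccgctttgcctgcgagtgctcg

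Ccnb2 holds 3 CCAAT boxes, with first bases at -87, -54 and -21 from the start, and TTTGAA at -167 and 5. Top2a holds 4 CCAAT matches in the stretch on either strand, and a CHR match at -23. Kif23 and Cenpa each hold at least 1 match of both kinds. Bub3, which did not pass with time, holds 2 CCAAT matches and 1 CHR match too, whereas Birc5, which fell by at least 2.66 with vehicle, holds no match in the stretch. In the full windows 6 members held no CHR form (Nuf2, Kif18a, Bub1, Mad2l1, Nusap1 and Ncaph), and 5 of these 6 held no CCAAT either; all 6 fell between 6 and 72 h. A match is a run of letters, and binding was not measured here.

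**Figure D5:**
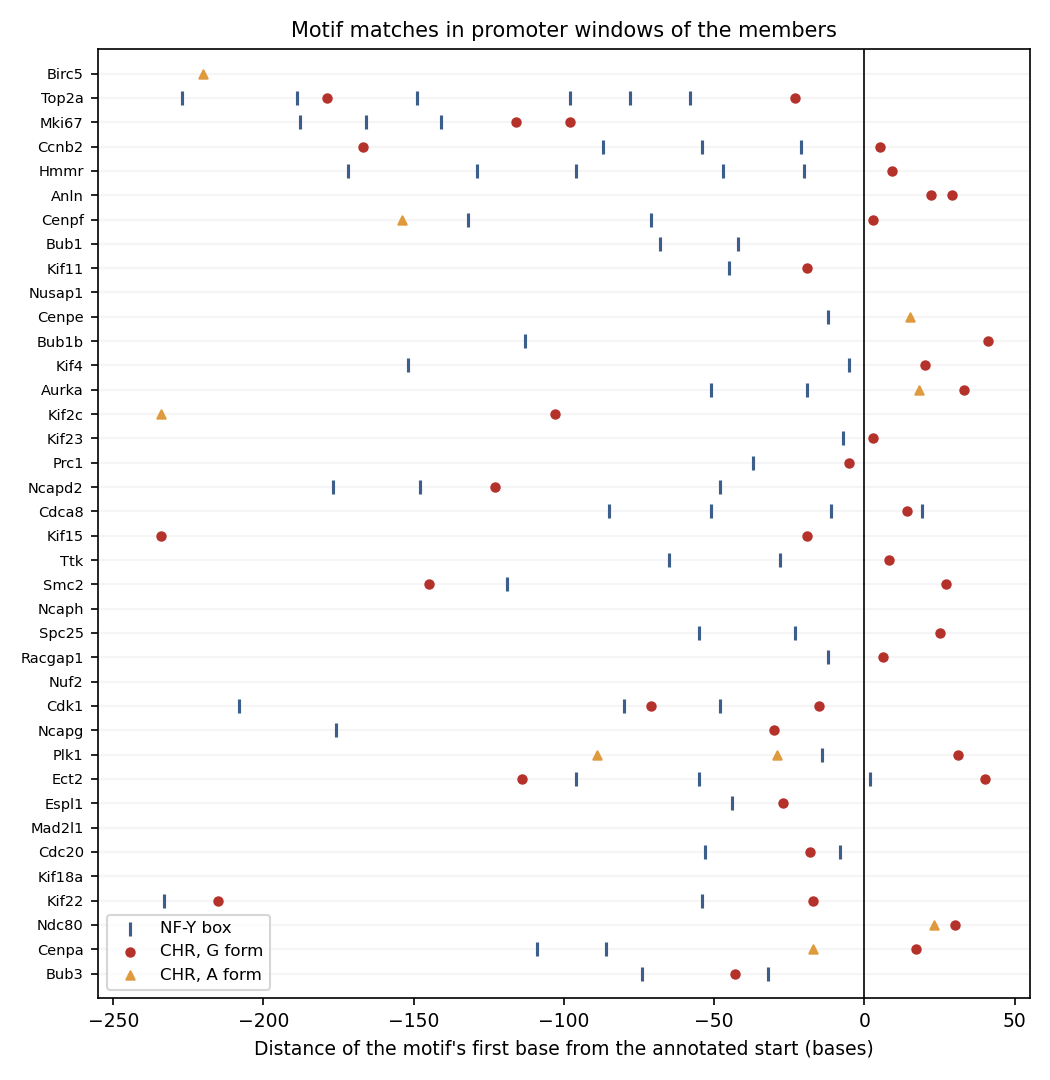
Positions of motif matches in the promoter windows of 38 mitosis genes, as distance in bases of the first matching base from the annotated start (x axis, negative before the start), genes ordered by their mean change from 6 to 72 h with the steepest at the top. Blue bars are CCAAT (NF-Y box), red circles TTTGAA and orange triangles TTTAAA; 27 of the 38 rows hold CCAAT together with a CHR form.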

How the data were processed

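The authors deposited log2 expression values for 35556 probe sets on 6 arrays, made by RMA per the submitters' processing notes, with quantile normalization in ArrayStar per the series' design text; no version was stated. Scanner values were left out. RMA summarises probes into 1 value and compresses differences of dim probe sets. In the platform annotation 21789 probe sets named 1 gene, 1621 several and 12146 were not listed; symbols were updated through gene identifiers (21698 matched the GRCm38.p6 gene table).

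limma 3.58.1 in R 4.3.3 (lmFit, eBayes, two-sided) was fitted to the 11516 genes whose highest array reached 5.37, modelling treatment and time (residual degrees of freedom 2, prior 7.17). Same-time arrays shared deviations from the treatment means (correlations of 0.562, 0.215 and 0.531 at 6, 24 and 72 h), and the labels give the times. Calls have an adjusted p under 0.05. Nothing says the arrays came from separate cultures. On simulated data for heme minus vehicle over 11516 genes, 10.2%, 91.0% and 100% of genes changed by 0.5, 1 and 2 on the log2 scale were recovered, with 5.3% of calls false.

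Members and gene lists were chosen with earlier results of these data known. Any member could be named; of other lists, genes past the test with heme or with the 3 largest mean differences, and others where said. Alternatives were cyclic loess, median-centring, repeated quantile normalization, other filters, averaged probe sets, an added offset of 16, a variance trend, robust eBayes, each term left out, each time point or array left out, and 1.5-fold and 4-fold thresholds.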

Additional observations from a re-analysis of the deposited data

How the results depend on the processing

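The count of members that fell between 6 and 72 h (43) was 30 to 43 under every alternative run, 30 without the treatment term, and 30 to 43 with 1 array left out at a time, the lowest without the 72 h vehicle array. With a filter on the mean it was 34, of 38 members tested. Members lower with heme over the 3 time points (2) became 0 after a second quantile normalization, 0 after cyclic loess, 1 with an offset of 16 and 0 without the time term, and 0 to 2 with 1 time point left out. Over all alternatives adjusted p-values ran from 0.0113 to 0.546 for Cenpa and from 0.0291 to 0.968 for Kif23, and the sign held in each. Members lower at 24 h than at 6 h (5) became 3 after a second quantile normalization, 12 after median-centring, 1 after cyclic loess, 8 with a filter on the mean, 8 with the mean of probe sets, 3 with an offset of 16, 9 with robust eBayes and 0 without the treatment term, and 0 to 31 with 1 array left out. Members lower at 72 h than at 24 h (4) became 8 after median-centring and 0 without the treatment term, and 0 to 26 with 1 array left out. Without an array of 6 h the prior rose to 46.9 degrees of freedom, so such calls rest mainly on the pooled variance. Members at least 2-fold lower with heme at 6 h (1) were 3 after median-centring and 0 with an offset of 16; at 1.5-fold they were 19, with 3 at 24 h and 2 at 72 h in place of 0, and at 4-fold 0. No alternative called a member higher in any of these comparisons.

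Median-centring shifted the median of all genes tested at 6 h to -0.22, in place of -0.10; relative to it the members' median was -0.39 in both cases, -0.42 after a second quantile normalization and -0.46 after cyclic loess. An offset of 16 changed the median from 6 to 72 h to -0.84 with heme and -1.30 with vehicle. Over all genes tested the counts for heme were 68 lower and 130 higher, and 1 to 199 and 11 to 322 under the alternatives; for 72 h against 6 h they were 407 and 352, and 205 to 540 and 113 to 784. The medians of members above 5.37 were added after seeing the data. The labels give no replicate numbers; the time term pairs heme and vehicle arrays of the same time, and the fit without it is the unpaired form. With 1 array per group and many levels near background at 72 h, a late difference of these genes may be missed.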
